A study of Mus musculus with 5 samples.

Results

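Cycling chondrocytes are the cartilage cells that were copying their DNA or dividing when the tissue was taken apart. Here they were 4668 of the 82516 cells that passed the filters, in single-cell RNA-Seq of femoral and tibial growth plate cartilage from 5 mouse pups. They were selected on measured transcript counts: a cell needed at least 300 Col2a1 transcripts per 10000, at least 3 transcripts of Mki67 and Top2a together, fewer than 3 of Ihh and fewer than 10 of Col10a1 per 10000. A transcript is counted here as a UMI, a molecular tag that marks 1 captured RNA molecule. The same conditions without the one on Mki67 and Top2a held for 44606 cells, called gated chondrocytes below, of which 35443 had no Mki67 or Top2a UMI and are called non-cycling.

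The pups were littermates, labelled C57BL/6J. The knock-in was made on that strain, while the Cre line came from a B6SJLF1 background and was later crossed to C57BL/6J. WT pups 1 and 2 (n = 2) were labelled wild type, and mutant pups 3, 4 and 5 (n = 3) were labelled mutant, a conditional knock-in of Trpv4 p.R594H in 1 allele, switched on in chondrocytes by a Col2a1-Cre transgene. Whether the WT pups carried the transgene or the unrecombined allele was not given in the sources used here. Their age was postnatal day 5 in the sample labels and postnatal day 3 in the description of the design. Cre was driven by a Col2a1 promoter, so that cells that never expressed Col2a1 would keep the unrecombined allele, and the counts do not separate the alleles.

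In the growth plate, chondrocytes leave a reserve of resting cells, divide in columns in the proliferative zone, then stop dividing, express Ihh and enlarge into Col10a1-expressing hypertrophic cells. During the cell cycle, DNA is copied in S phase with the help of the MCM helicase, PCNA and nucleotide synthesis, and the copied chromosomes are condensed and separated in G2 and M by cyclin B, CDK1, the kinesins and the anaphase-promoting complex. Mki67 marks the surface of mitotic chromosomes, Top2a untangles DNA, and Trpv4 encodes a calcium-permeable channel of chondrocytes.

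The files held between 117746735 and 183322632 UMIs per pup, with less depth in the mutant pups. The median cycling chondrocyte had 15896 and 16578 UMIs in the WT pups and 11643, 10984.5 and 13327.5 in mutant pups 3, 4 and 5. By transcripts, mutant pups 3 and 4 had Xist and the other 3 pups had the Y-linked Ddx3y, so both WT pups were of 1 sex and the mutant pups were of both. Between any pair of pups 3 to 7 cell barcodes were shared, none of them among the cycling chondrocytes. The upper limit of 6000 detected genes removed 60 and 67 cells from the WT pups that met every other condition, and 6, 4 and 6 from the mutant pups.

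The promoters of cell cycle genes carry short sequence elements by which S phase and mitotic genes are told apart, and 6 are shown because their genes stood at the ends of the S to G2/M range within the cycling chondrocytes described further on. Each covers 250 bases before to 50 bases after the start of the gene, read 5′ to 3′ on the gene's strand, from RefSeq on GRCm38.p6. Capitals mark 3 kinds of element on either strand: the cell cycle genes homology region or CHR (TTTGAA or TTCGAA), the CCAAT box (CCAAT) and E2F motifs. The E2F letters searched were TTCCCGC and also TTGGCGC, to which the variants TTCGCGC and lastly TTGCCGC were added. The first 3 are S phase genes: Ung removes uracil from DNA (chr5:114130185-114130484, + strand), Cdc6 loads the replicative helicase (chr11:98907901-98908200, + strand) and Chaf1b assembles nucleosomes behind the fork (chr16:93883651-93883950, + strand). The other 3 are mitotic: Cenpa is the centromeric histone (chr5:30666636-30666935, + strand), Ccnb1 is cyclin B1 (chr13:100786437-100786736, − strand) and Ube2c is the ubiquitin-conjugating enzyme of the anaphase-promoting complex (chr2:164769679-164769978, + strand).
Ung: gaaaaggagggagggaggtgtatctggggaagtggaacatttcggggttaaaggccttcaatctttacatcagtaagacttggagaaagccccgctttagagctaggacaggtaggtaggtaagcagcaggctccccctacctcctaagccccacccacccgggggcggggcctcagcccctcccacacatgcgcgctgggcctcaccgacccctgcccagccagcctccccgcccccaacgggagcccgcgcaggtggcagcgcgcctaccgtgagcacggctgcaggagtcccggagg
Cdc6: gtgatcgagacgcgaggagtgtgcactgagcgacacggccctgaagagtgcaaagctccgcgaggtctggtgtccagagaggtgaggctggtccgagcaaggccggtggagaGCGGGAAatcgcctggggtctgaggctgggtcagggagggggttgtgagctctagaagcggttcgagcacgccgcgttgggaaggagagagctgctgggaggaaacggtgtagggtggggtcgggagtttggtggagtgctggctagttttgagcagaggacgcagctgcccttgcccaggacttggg
Chaf1b: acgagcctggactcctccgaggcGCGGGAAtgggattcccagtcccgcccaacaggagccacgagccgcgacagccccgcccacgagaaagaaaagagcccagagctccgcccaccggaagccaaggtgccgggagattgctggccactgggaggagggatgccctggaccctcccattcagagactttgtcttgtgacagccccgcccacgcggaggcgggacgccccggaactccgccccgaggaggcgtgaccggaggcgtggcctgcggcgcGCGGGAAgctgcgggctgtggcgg
Cenpa: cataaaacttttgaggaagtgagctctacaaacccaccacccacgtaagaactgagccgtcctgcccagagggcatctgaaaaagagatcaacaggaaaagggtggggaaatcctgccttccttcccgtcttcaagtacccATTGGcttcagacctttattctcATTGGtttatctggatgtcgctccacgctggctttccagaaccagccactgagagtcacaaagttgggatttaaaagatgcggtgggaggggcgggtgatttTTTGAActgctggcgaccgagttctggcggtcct
Ccnb1: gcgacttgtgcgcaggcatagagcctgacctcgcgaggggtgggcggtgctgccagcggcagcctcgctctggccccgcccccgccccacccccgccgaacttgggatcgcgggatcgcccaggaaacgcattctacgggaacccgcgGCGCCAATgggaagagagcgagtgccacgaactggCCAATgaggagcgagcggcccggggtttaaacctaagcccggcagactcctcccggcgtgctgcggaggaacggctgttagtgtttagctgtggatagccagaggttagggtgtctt
Ube2c: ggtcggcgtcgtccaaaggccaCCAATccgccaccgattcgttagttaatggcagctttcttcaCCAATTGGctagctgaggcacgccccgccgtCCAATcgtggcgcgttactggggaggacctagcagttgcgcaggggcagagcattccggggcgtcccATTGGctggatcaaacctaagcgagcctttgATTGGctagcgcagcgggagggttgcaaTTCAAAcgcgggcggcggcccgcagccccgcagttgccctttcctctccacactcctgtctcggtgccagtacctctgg
Chaf1b held 2 E2F motifs and Cdc6 held 1, while neither had a CHR or a CCAAT box, and Ung had none of the 3 kinds. Cenpa held a CHR with its first base at position 17 after the start and 2 CCAAT boxes. Ube2c held a CHR at position -29 and 6 CCAAT boxes, of which those at -186 and -183 overlapped on opposite strands. Ccnb1 held 2 CCAAT boxes, 1 of which overlapped its E2F motif.

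The search was extended to the whole phase lists. A promoter was in the table for 48 of 56 G2/M genes and 36 of 49 S phase genes, and a gene with several starts counted when any of them held the element. A CHR was present for 36 of the 48 G2/M genes (75%), 6 of the 36 S phase genes (16.7%) and 5854 of all 27025 genes (21.7%). An E2F motif was present for 10 G2/M genes (20.8%), 25 S phase genes (69.4%) and 10.9% of all genes. At least 1 CCAAT box was present for 37 G2/M genes (77.1%), 22 S phase genes (61.1%) and 41.1% of all genes, so that S phase genes without one, like those printed, were the minority. At least 2 CCAAT boxes were present for 58.3% of the G2/M genes, 41.7% of the S phase genes and 13.3% of all genes. Boxes that overlapped on opposite strands were counted separately. E2F motifs and CCAAT boxes overlapped in 2 S phase genes, 3 G2/M genes and 142 of all genes, and no E2F motif overlapped a CHR. These are matches of letters, and binding was not measured.

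Both Mki67 (chr7:135689784-135716361) and Top2a (chr11:98992943-99024189) were detected in 86.8% to 91.3% of the cells of each pup, with a median of 22, 23, 17, 15 and 20 UMIs of the 2 genes together in pups 1 to 5. At the threshold, 406 cells had exactly 3 of these UMIs and were inside, and 987 gated chondrocytes had 2 and were outside. The chondrocyte markers that the selection did not use were high: Sox9, the master transcription factor of cartilage, stood at 1529, 1524, 1367, 1634 and 2014 CPM (counts scaled to a common library size) in pups 1 to 5, and Col9a1, a fibrillar collagen partner, at 10124.5 to 11444.3 CPM. Col2a1 itself, the collagen used in the selection, was somewhat lower than in non-cycling chondrocytes, at 0.740 to 0.787 times their CPM. The Ihh condition removed 92 cells and the Col10a1 condition a further 11.

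Markers listed for other cell types ranged from near 0 to high. The 10 perichondrial and fibroblast genes, Col1a1, Col1a2 and Col3a1 among them, summed to 17327.5 to 23311.2 CPM in the cycling chondrocytes of a pup, below the 27024.8 to 37925.3 CPM of non-cycling ones. The osteoblast list, which shares Col1a1, summed to 8409.7 to 11182.2 CPM, the tendon list to 2251 to 3409 CPM and the pericyte list to 417 to 682 CPM, so these lists did not set other cells apart here. Macrophage and leukocyte markers summed to 25.8 to 147 CPM over the 11 genes of that list and endothelial markers to 8.40 to 15.8 CPM over 7 genes. Erythroid markers, 6 globin and red cell genes, summed to 1292 CPM in the cycling chondrocytes of WT pup 1, against 418.5 in WT pup 2 and 215 to 283 in the mutant pups. In non-cycling chondrocytes they were at 185, 708, 302, 135 and 122 CPM in pups 1 to 5, above the cycling cells in WT pup 2 and mutant pup 3 and below them in the other pups. Over the leukocyte, endothelial, erythroid and muscle lists, 480 of the 4668 cells had 3 or more UMIs of another type, 140 of 1117 and 181 of 876 in the WT pups and 60 of 759, 41 of 1120 and 58 of 796 in the mutant pups. By this count such cells were more frequent in both WT pups, whose deeper cells reach 3 UMIs more easily. By summed CPM, of these lists only the erythroid one was higher in both WT pups than in every mutant pup. The part of the counted cells in the genotype comparisons is given by leaving them out. The share difference was then -1.29 percentage points, and edgeR called 0 of 13799 genes, with 1151 at an unadjusted p under 0.05. Doublets were not called.

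The median UMI count of cycling chondrocytes was 1.59, 1.77, 1.66, 1.76 and 1.84 times that of non-cycling chondrocytes in pups 1 to 5. Since a deep cell reaches 3 UMIs of Mki67 and Top2a more easily, the ratio was also taken with the condition set at 3 per 10000 UMIs, where it was 1.51 to 1.7. The non-cycling class, chosen for 0 such UMIs, was the same in both, and shallow cells reach 0 more easily. The part of this choice in the ratios was not tested. Mitochondrial UMIs took a median of 3.83% to 4.22% of the cycling cells' total.

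The first comparison asked which share of the chondrocytes was cycling in each genotype. In the WT pups 12.7% (95% exact binomial interval 12% to 13.4%) and 10.6% (9.98% to 11.3%) of gated chondrocytes were cycling. In mutant pups 3, 4 and 5 the share was 9.29% (8.66% to 9.94%), 11.5% (10.9% to 12.2%) and 8.24% (7.70% to 8.81%). The groups overlapped, with mutant pup 4 between the WT pups. The intervals cover counting error only. The means were 11.7% ± 1.45 (SD, n = 2) and 9.68% ± 1.66 (SD, n = 3), a difference of -1.99 percentage points (2-sided exact permutation test, p = 0.3, where the smallest p that 2 against 3 pups allow is 0.1).

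The direction of this difference depended on the setting. When every cell was thinned to 5000 UMIs, cells under that were left out and the condition was lowered to 2 UMIs, the shares were 12% and 10.1% in the WT pups and 10.2%, 14.1% and 9.05% in the mutant pups. The means were then 11.1% ± 1.37 and 11.1% ± 2.65, and the difference turned to 0.076 percentage points (exact permutation p = 0.9). Thinning left out 500 and 522 Col2a1-high cells of the WT pups and 1506, 2581 and 1697 of the mutant pups. Few of the gated chondrocytes left out were cycling, 19 of 497 and 16 of 521 in the WT pups and 31 of 1494, 49 of 2575 and 31 of 1695 in the mutant pups. Leaving them out thus raised the shares, with more cells lost from the mutant pups, and its part in the change was not separated from that of equal depth. Neither scale showed a difference beyond the spread between pups. As the smallest p of this test is 0.1, no difference of any size could have passed 0.05 with these numbers.

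**Figure D1:**
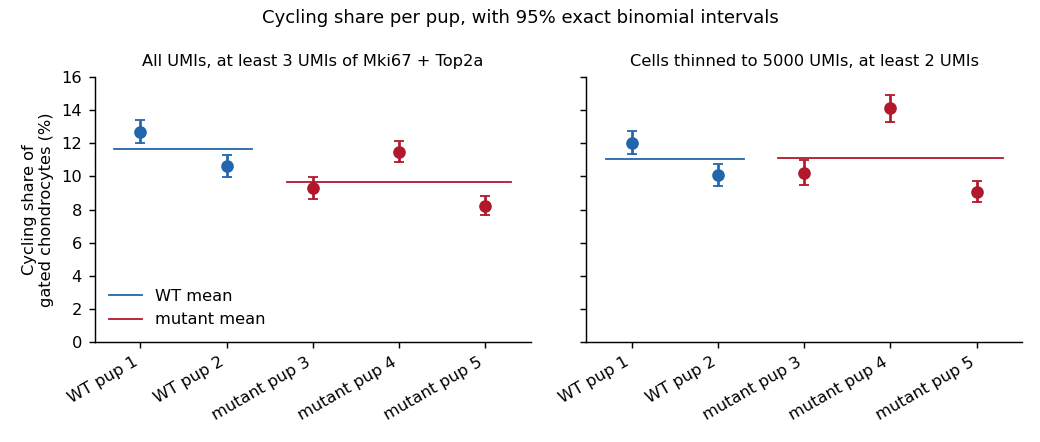
Cycling share of gated chondrocytes in percent for each of the 5 pups, from all UMIs (left) and after thinning each cell to 5000 UMIs (right). Points are pups with 95% exact binomial intervals and horizontal lines are group means; the means differ by -1.99 percentage points on the left and 0.076 on the right, and the pups of the 2 groups overlap in both panels.

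The phase of the cycling chondrocytes was read from 49 S phase and 56 G2/M genes, neither list holding Mki67 or Top2a. G2/M transcripts made up 77.5% and 78.8% of the phase UMIs in the WT pups and 76.5%, 78.9% and 79.6% in the mutant pups. The means, 78.2% ± 0.886 (SD, n = 2) and 78.3% ± 1.67 (SD, n = 3), differed by 0.182 percentage points (exact permutation p = 0.9). In non-cycling chondrocytes the share was 57.9% to 60.6%. These cells were chosen for 0 UMIs of Mki67 and Top2a, and the cycling ones for at least 3. That choice could favour some phases over others although neither gene is in the lists, and its part in these shares was not tested.

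Single cells spread widely along this measure. The fullest bin of 5 points was that from 90% to 95% in every pup, with 15.9%, 16.7%, 17.4%, 18.3% and 19.8% of the cycling chondrocytes of pups 1 to 5. The rest were spread unevenly over lower shares, with 6.62% of the cells of WT pup 1, for example, between 45% and 50% and 3.58% between 60% and 65%. Having seen this distribution, 3 ranges were set: 27.7% to 33.6% of a pup's cycling chondrocytes had a share of at most 60%, 26.3% to 31.1% lay between, and 38.3% to 45.0% had over 85%. The ranges cut a continuous measure and are not cell types.

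**Figure D2:**
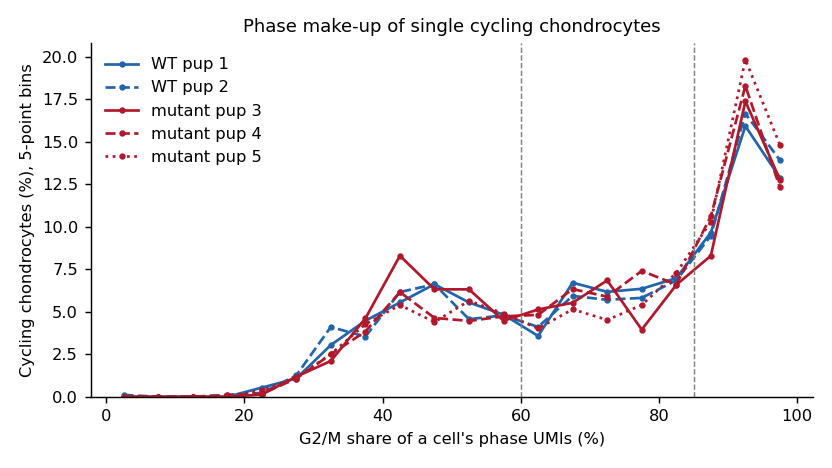
Percent of each pup's cycling chondrocytes (vertical axis) by the G2/M share of the cell's phase UMIs (horizontal axis, bins of 5 points), 1 line per pup, with dashed lines at 60% and 85%. All 5 pups peak in the bin from 90% to 95%, with 15.9% to 19.8% of their cells there.

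Between these ranges the phase genes changed over, which is a description because the lists set the ranges. All 48 S phase genes at 20 CPM or more were lower in the over 85% range in all 5 pups, and 55 of 56 G2/M genes were higher. Cenpa, whose promoter is shown above, differed by a log2 ratio of 5.46 and 5.47 in the WT pups and 5.17, 5.44 and 5.01 in the mutant pups. Ccnb1 had a median log2 ratio of 4.99 and Ube2c of 4.42. At the other end stood Ung at -5.17, Cdc6 at -4.78 and Chaf1b at -4.29, with Ung at 5.61 CPM in the over 85% range and 182 CPM in the range up to 60%.

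Genes of neither phase list moved along the same axis. Of 6078 such genes at 20 CPM or more in either range, 306 (5.03%) were at least 1.5 times higher in the over 85% range in every pup and 288 (4.74%) at least 1.5 times lower. The most raised were Knstrn, a kinetochore-associated protein (156 against 9.54 CPM), Cdkn3, a phosphatase of CDK1 (142 against 10.6), and Reep4, which clears endoplasmic reticulum from chromosomes (39.4 against 2.97). Mamdc2, a matrix proteoglycan gene, was also among the first 10, at 76.3 against 7.48 CPM, a median log2 ratio of 3.41 with 3.01 as its lowest value. Vangl1, a planar cell polarity gene, had a median log2 ratio of 3.15 (42.6 against 4.62 CPM). The most reduced were Timeless (3.12 against 36.0 CPM), Shmt1, which feeds thymidylate synthesis (2.71 against 22.6), and Pola2, a subunit of DNA polymerase alpha (4.50 against 33.1). All of these genes were picked with their values in view.

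The D-type cyclins, which carry growth signals into G1, stood with the S phase end. Ccnd1 was at 76.6 CPM in the over 85% range and 246 in the range up to 60%, Ccnd2 at 128 against 443 and Ccnd3 at 183 against 357. Cdk4 and Cdk2 were also lower there (median log2 ratio -0.87 and -1.28). Of 20 tested cyclins, CDKs and CDK inhibitors outside the phase lists, 4 were higher and 6 lower in every pup, beside 5.03% and 4.74% of all genes. The cartilage matrix list had none of 22 genes past 1.5-fold in either direction in every pup, nor did the 17 chondrocyte transcription factors tested. Calm2 and Calm3, which encode calmodulin, were the only 2 of 25 TRPV4 and calcium genes to pass, both higher, with 1004 against 425 and 274 against 96.1 CPM.

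The next question was how cycling differed from non-cycling chondrocytes in the same pup. This is a description without a test, because the selection made the classes. Among 6084 genes with at least 20 CPM in either class, 720 (11.8%) were at least 1.5 times higher in cycling chondrocytes in every pup and 218 (3.58%) at least 1.5 times lower, and the median log2 ratio over all of them was 0.06. With every cell thinned to 5000 UMIs, 720 of 6067 genes (11.9%) were higher and 135 (2.23%) lower.

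All 56 G2/M genes and 44 of 46 tested S phase genes were among the higher genes, with median log2 ratios of 5.79 and 2.53. Outside the genes of the selection, and among genes higher in all 5 pups, the 10 highest ratios belonged to Nek2, Pbk, Aurkb, Hmmr, Ccna2, Pimreg, Bub1, Cdca5, Ccnb1 and Nuf2, all mitotic or G2 genes. Nek2, a centrosomal kinase (chr1:191821444-191833050), was at 90, 114, 95, 92.4 and 109 CPM in the cycling chondrocytes of pups 1 to 5 and at 0.226 to 0.435 CPM in their non-cycling cells. Ccna2, cyclin A2 (chr3:36564865-36572150), was at 397, 411, 435, 469 and 475 CPM against 1.43 to 2.10. The 2 classes did not overlap for either gene, and their median log2 ratios were 8.26 and 7.83.

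Phase genes of high level showed smaller ratios. Hmgb2, a chromatin protein of dividing cells, was at 2068 to 2222 CPM in cycling and 157 to 220 CPM in non-cycling chondrocytes. Pcna, the sliding clamp of replication, was at 343, 329.5, 375, 335 and 321 CPM against 79.4 to 92.5 CPM. All cycling values again lay above all non-cycling ones.

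The cyclin and CDK list had 14 of 26 genes at least 1.5 times higher and 1 lower in every pup, beside 11.8% and 3.58% of all genes. Cdk1, the mitotic kinase, was at 429, 433, 484.5, 583 and 556 CPM against 15.5 to 24.3. Cdkn2c, an INK4 inhibitor of CDK4 and CDK6, was at 154 to 192 CPM against 9.62 to 10.8, so this inhibitor stood with the cycling cells. Cdkn1c, another inhibitor and an imprinted gene, differed little (667 to 1015 CPM against 692 to 1052).

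Ccnd2 was the 1 member at least 1.5 times lower in every pup. It stood at 275, 248, 277, 244 and 222 CPM in cycling chondrocytes and 426, 424, 484, 425 and 398 CPM in non-cycling ones, without overlap. Ccnd3 was also lower in each pup, but by less than 1.5-fold, at 241 to 280 CPM against 324 to 373. Ccnd1 was about level, at 121 to 166 CPM against 113 to 140.

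**Figure D3:**
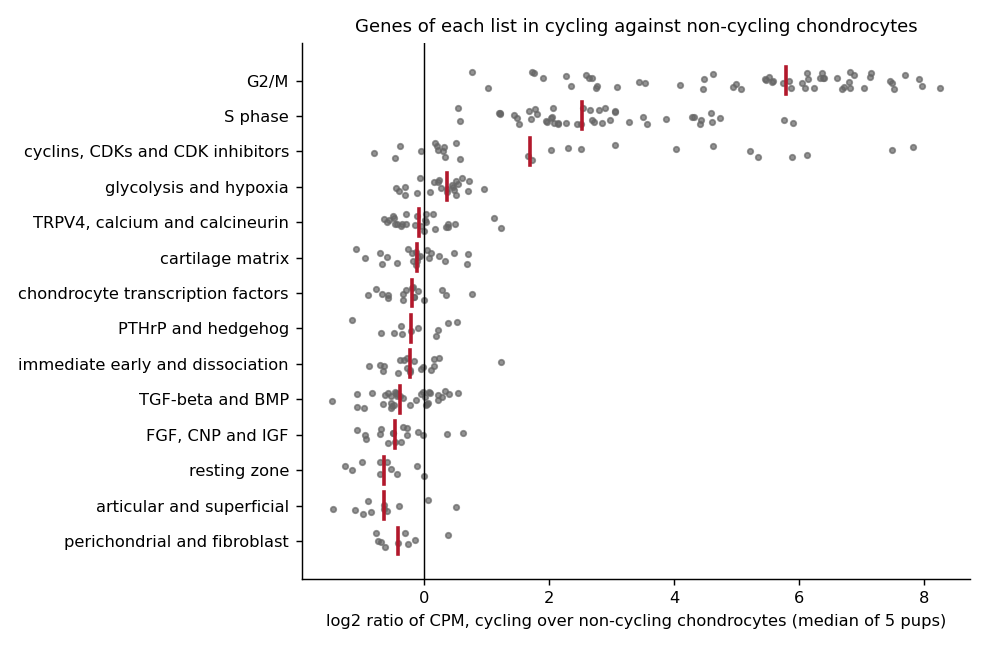
log2 ratio of CPM in cycling over non-cycling chondrocytes (horizontal axis, median of 5 pups) for the genes of 14 lists, 1 point per gene and a red bar at the list median. The G2/M and S phase lists centre at 5.79 and 2.53, the other lists except the cyclins lie close to 0, and the resting zone and articular lists centre at -0.65 and -0.64.

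Of 22 cartilage matrix genes 1 was at least 1.5 times higher and 1 lower in every pup, beside 11.8% and 3.58% of all genes. Matn3, which encodes matrilin 3, a matrix adaptor protein, was the higher one, at 2937, 2763, 2516, 3384 and 3542 CPM against 1858, 1772, 1501, 2076 and 1930, and its median log2 ratio of 0.71 became 0.66 after thinning, where no matrix gene was higher and 2 of 22 were lower by 1.5-fold in every pup, beside 11.9% and 2.23% of all genes. Acan, the main cartilage proteoglycan, had a median log2 ratio of 0.11, Hapln1, its link protein, 0.24 and Col9a1 -0.17. Cilp2 was the lower one, at -1.10. Among 17 transcription factors, Runx3, a partner of Runx2 in chondrocyte maturation, was higher (81.9 to 99.3 against 48.2 to 60.6 CPM) and Creb5, a factor of articular cartilage, lower (median log2 ratio -0.91), while neither passed after thinning. Sox9 had a median log2 ratio of -0.17.

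Some genes of the resting zone and of the articular surface were lower, but most did not pass. Of 10 tested resting zone genes 3 were lower in every pup, beside 3.58% of all genes, and none was higher. They were Gas1, a growth arrest and hedgehog co-receptor gene, Wif1, a Wnt antagonist, and Clu, a chaperone. Wif1 stood at 336, 333, 338, 246 and 228.5 CPM against 517 to 678. Of 11 articular genes 5 were lower and none higher, including Prg4, the joint lubricant, at 1802, 1877.1, 2166.2, 1292 and 1267 CPM against 2806 to 3987. After thinning 2 resting zone genes and 0 articular genes were past 1.5-fold in every pup, beside 2.23% of all genes, with list medians of -0.53 and -0.54. Thinning leaves out cells under 5000 UMIs, and among those kept Prg4-high cells had a median of 6824 to 8642 UMIs per pup against 8498.5 to 12754 in Prg4-low cells.

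In the signalling lists most genes did not pass. Of the TGF-β and BMP list 5 of 35 tested genes were lower, beside 3.58% of all genes, and none was higher: Grem1 and Ltbp1, which hold BMP and latent TGF-β, and the ligands Bmp2, Bmp6 and Inhba. Bmp2 was at 101.4, 65.7, 72.2, 74.5 and 83.1 CPM against 130.5 to 193.6. In the FGF, CNP and IGF list 4 of 17 were lower, Fgf2, Ghr, Igfbp5 and Igfbp7, and none higher. After thinning 3 of 34 and 3 of 18 genes of these lists were lower, beside 2.23% of all genes. Fgfr3, the receptor that restrains chondrocyte division, did not pass but leaned up in every pup (319, 388.5, 381, 447 and 394 CPM against 223 to 273), as did 47.1% of all genes. Of 11 PTHrP and hedgehog genes only Gas1 passed. Among 23 glycolysis and hypoxia genes only 2, Pgam1 and the lactate exporter Slc16a3, were higher, beside 11.8% of all genes, and the list median was 0.36 against 0.06 over all genes. The immediate early and dissociation list had Hsp90aa1 higher, and Atf3 and Hspa1b lower, of 19.

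Trpv4 (chr5:114622152-114658421) was itself somewhat higher in cycling cells. It was at 244, 173, 179, 258 and 257 CPM in the cycling and 207, 142, 136, 195 and 199 CPM in the non-cycling chondrocytes of pups 1 to 5. In each pup the cycling class was higher, by 1.18 to 1.32 times, a direction that 47.1% of all 6084 genes had in all 5 pups. Calm2 and Calm3 were higher by more, with median log2 ratios of 1.11 and 1.23, and Nfat5, a factor that answers osmotic stress, was lower. Those 3 were the only ones of 26 TRPV4 and calcium genes past 1.5-fold in every pup, beside 11.8% higher and 3.58% lower of all genes, and Nfat5 did not pass after thinning.

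Among genes lower in all 5 pups, the lowest ratios belonged to Tcp11l2, Ogn, Slc16a4, Grem1, Cilp, Itpkc, Omd, Slc1a3, Ism1 and Clu. Ogn, osteoglycin, a small leucine-rich proteoglycan (chr13:49608046-49624501), was at 123, 104, 120, 142 and 91.7 CPM in cycling chondrocytes against 341 to 397 CPM. Omd, osteomodulin (chr13:49582462-49592822), is its neighbour on chromosome 13 and of the same family, and had a median log2 ratio of -1.42. All 10 kept a negative median after thinning, from -1.71 to -0.90.

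Cycling chondrocytes were then set against the 4089 cycling cells with less Col2a1. Cell cycle genes differed little, with a median log2 ratio of -0.13 for S phase and -0.09 for G2/M genes: none of 46 S phase genes and 2 of 56 G2/M genes, Nek2 and Tubb4b, were at least 1.5 times higher in cycling chondrocytes in every pup, and none was lower. Over all 6914 genes tested, 495 (7.16%) were higher and 1053 (15.2%) lower, with a median log2 ratio of -0.15. Tubb4b, a beta tubulin, had a mean of 553 CPM against 260. As Col2a1 set these classes apart, the 18 of 22 cartilage matrix genes that were higher are a description of what was selected. Both classes needed at least 3 UMIs of Mki67 and Top2a, so the small differences in cell cycle genes are also a description of what was selected.

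Of 23 glycolysis and hypoxia genes 15 were higher and none lower, beside 7.16% and 15.2% of all genes. Bnip3, a hypoxia-induced mitophagy gene, had a mean of 637 against 85.8 CPM, Slc2a1, the main glucose transporter, 163 against 39 and Pgk1 1070 against 294. Trpv4 was at a mean of 222 against 26.1 CPM (median log2 ratio 3.17), Fgfr3 at 386 against 40.3 and S100b, a calcium-binding protein of cartilage, at a median log2 ratio of 3.37. Among the lower genes were Igf1 (41.1 against 471 CPM), 6 IGF-binding proteins led by Igfbp2 and Igfbp3, and the FGF antagonists Spry1 and Spry4. All 11 leukocyte genes and 5 of 5 endothelial genes were lower, beside the same 15.2%, so the other class held such cells.

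Where in the tissue the cycling cells sat was approached through marker genes. Chondrocytes with at least 300 Col2a1 per 10000 were thinned to 5000 UMIs and split by each of 9 markers, with no condition on Ihh or Col10a1, and a cell counted as cycling with 2 or more UMIs of Mki67 and Top2a. Ucma marks resting and upper zone cartilage: Ucma-high cells were cycling in 11.9%, 7.80%, 9.42%, 12.9% and 8.14% of cases in pups 1 to 5, and Ucma-low cells in 12%, 12%, 10.3%, 16.4% and 10.9%. The high class was lower in 5 of 5 pups, by -2.27 percentage points on average, although by only 0.047 in WT pup 1 (2-sided exact sign-flip permutation test, p = 0.063, the smallest that 5 pups allow, and 0.0804 after Benjamini-Hochberg adjustment over 9 markers).

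The strongest contrast was at the end of the growth plate's sequence. Col10a1-high cells were cycling in 1.79%, 0.694%, 1.98%, 4.27% and 1.61% of cases, against 9.03% to 14% in Col10a1-low cells of the same pups, and Ihh-high cells in 3.09% to 7.25%. The mean differences were -8.95 and -6.46 percentage points. Among unthinned cells with at least 100 Col10a1 per 10000, 1 of 37, 1 of 74, 0 of 159, 1 of 54 and 0 of 27 were cycling in pups 1 to 5, where the 0 of 159 allows a share of up to 2.29% (exact binomial interval). Unthinned cells with 3 or more Ihh UMIs gave less of a contrast, with 14.2%, 6.21%, 4.64%, 10.9% and 6.61% cycling, the first of which lay above the 12.7% of gated chondrocytes in WT pup 1. The median depth of the Col10a1 cells was 22929.5 to 33830 UMIs, above that of gated chondrocytes in every pup.

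Other markers of the upper growth plate gave the same direction. Dlk1-high cells, an imprinted Notch ligand-like gene of immature cartilage, were cycling in 10.7%, 8.07%, 9.11%, 12.4% and 7.12% of cases against 11.6% to 17.6% in Dlk1-low cells. Tgfbi-high, Penk-high and Mgp-high cells were lower in 5 of 5 pups as well, by -5.84, -4.97 and -2.20 percentage points on average. The Tgfbi-high cells were few, 90 to 313 per pup, with 3 to 15 of them cycling. By summed CPM Tgfbi was about level between cycling and non-cycling chondrocytes (median log2 ratio 0.01), higher in cycling cells in pups 1, 4 and 5 and lower in pups 2 and 3. For Dlk1, Tgfbi, Penk and Mgp the sign-flip p was 0.063, the smallest that 5 pups allow, and the adjusted p 0.0804. Prg4 and Pthlh had no common direction: Prg4-high cells were lower in 2 of 5 pups (mean difference 0.186, exact permutation p = 0.875), and Pthlh-high cells, 23 to 76 per pup, in 3 of 5 (-1.55, exact permutation p = 0.4375). Dlk1-high cells were shallower before thinning than Dlk1-low cells (median 7297 to 10193 against 14165 to 19010 UMIs). Tgfbi-high, Penk-high and Mgp-high cells were also shallower than their low cells in every pup, and Ucma-high cells in every pup except WT pup 1. The part of depth in the differences for these markers was not tested.

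**Figure D4:**
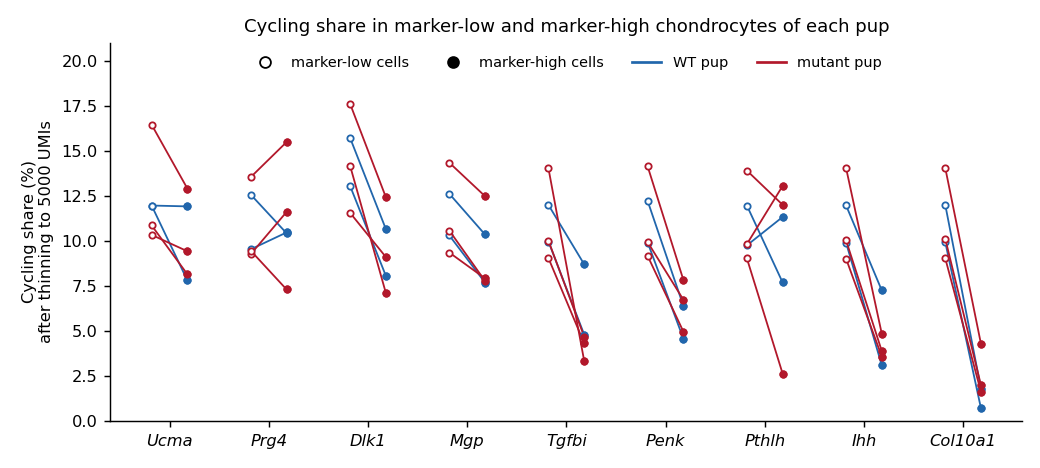
Percent of chondrocytes that were cycling after thinning to 5000 UMIs (vertical axis) in marker-low (open) and marker-high (filled) cells for 9 markers, with a line joining the 2 values of each pup, blue for WT and red for mutant. The lines fall in 5 of 5 pups for Ucma, Dlk1, Mgp, Tgfbi, Penk, Ihh and Col10a1, and go both ways for Prg4 and Pthlh.

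The last comparison asked which genes differed between genotypes within the cycling chondrocytes. UMI counts were summed over the cells of each pup, and 14665 genes were tested with edgeR. No gene passed an adjusted p of 0.05 (0% of 14665), although 1112 had an unadjusted p under 0.05 (559 higher and 553 lower in the mutant pups) and DESeq2 on the same sums called 24. Without 1 of the pups edgeR called between 0 and 96, the most without WT pup 2, where the lone WT pup is assumed to vary like the mutant pups. All 3 mutant pups lay above both WT pups for 1745 genes (11.9%) and below both for 1976 (13.5%), and the median log2 fold change was -0.01.

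The allele under study came first. Trpv4 was at 247 and 165 CPM in the WT pups and 177, 270 and 260 CPM in mutant pups 3, 4 and 5 on the normalized scale. The groups overlapped, and the log2 fold change was 0.19 ± 0.25 (SE; edgeR adjusted p = 0.865), turning to -0.06 without WT pup 2. Of the genes that chose the cells, Mki67 was at 608 and 607 CPM against 483, 461 and 537, Top2a at 1066 and 1047 against 1047, 1046 and 1132, and Col2a1 at 77234 and 59201 against 70005, 82079 and 77115. These 3 are given without a test.

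The 10 genes of at least 20 CPM with the smallest p, none of which passed, were Sp7, Cxcl1, Ppa1, Btg2, Cox4i2, Cryab, Sidt2, Ndufa4l2, Ddit3 and Tgm2. Sp7, osterix, a transcription factor of hypertrophic cells and osteoblasts (chr15:102356606-102367182), was at 25.8 and 29.7 CPM in the WT pups and 44.6, 46.3 and 40.7 CPM in the mutant pups. Its log2 fold change was 0.66 ± 0.11 (SE; edgeR adjusted p = 0.304). Ppa1, inorganic pyrophosphatase (chr10:61648552-61674168), was at 321 and 264 CPM against 450, 564 and 441, a log2 fold change of 0.73 ± 0.13 (SE; edgeR adjusted p = 0.429). The pups of the 2 groups did not overlap for either gene. With no upper limit on genes, a limit that removed more WT than mutant cells, the log2 fold changes were 0.45 for Sp7 and 0.48 for Ppa1.

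Among the lower ones, Btg2, an antiproliferative immediate early gene, was at 483 and 597 CPM against 339, 280 and 369 (log2 fold change -0.71 ± 0.13, SE). Ddit3, the stress factor CHOP, was at 96.3 and 109.5 CPM against 71.0, 55.5 and 73.5. Ndufa4l2 and Cox4i2, hypoxia-induced subunits of the respiratory chain, were at 428 and 433 against 312, 331 and 323 CPM and at 99.1 and 101.5 against 75.3, 65.5 and 74.5 CPM. Over the 10 genes the adjusted p ran from 0.304 to 0.476. Their direction was the same under all 15 alternatives, which is a description, since the genes were picked for small p in the same pups that the alternatives refitted. Each passed the threshold with no low-count filter, where 233 genes were called, and all but Sidt2 and Tgm2 passed with DESeq2. With sex as a covariate the edgeR adjusted p of each was 0.945.

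**Figure D5:**
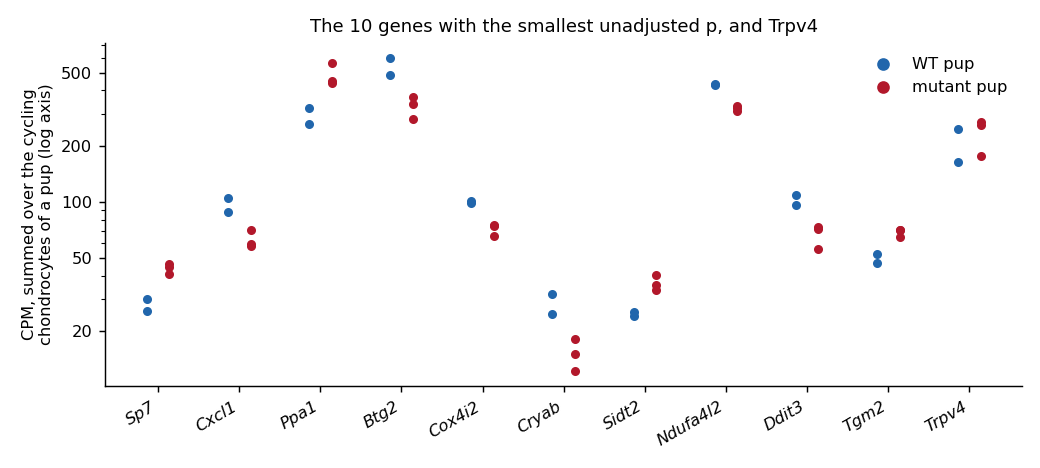
CPM (log axis) of the 10 genes with the smallest unadjusted p and of Trpv4, summed over the cycling chondrocytes of each pup; blue points are the 2 WT pups and red points the 3 mutant pups. The groups do not overlap for the 10 genes, as for 11.9% (higher) and 13.5% (lower) of all genes, and they overlap for Trpv4.

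The genotypes were also read by lists. Of 49 S phase genes 8 lay above and 2 below in all mutant pups, beside 11.9% and 13.5% of all genes, none had an unadjusted p under 0.05, and the median log2 fold change was 0.01. Among 56 G2/M genes 7 lay above and 5 below, 8 had an unadjusted p under 0.05, each higher, beside 559 of all 14665 genes, and the median was 0.04. None passed the adjusted threshold. In the cyclin and CDK list 10 of 32 lay above, beside 11.9% of all genes, and 3 below, with a median of 0.07. Cdk1 was at 435 and 413 CPM against 477, 610 and 563, and Ccna2 at 402 and 392 against 428, 491 and 481, none of them past the threshold.

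Some of the abundant members of the lists are given by their levels, none of them past the threshold. For replication, Pcna stood at 347 and 314 CPM in the WT pups and 369, 351 and 325 in the mutant pups, and Rrm2, a subunit of ribonucleotide reductase, at 191 and 179 against 203, 210 and 206. For mitosis, Hmgb2 stood at 2132 and 2119 against 2043, 2164 and 2184. Cks2, a CDK1 partner, was at 644 and 554 against 652, 813 and 688, so that Pcna and Hmgb2 overlapped between genotypes while Rrm2 and Cks2 lay higher in all mutant pups. Of the other abundant phase genes Lig1 lay higher and Rrm1 lower in all mutant pups, and Smc4 and Ube2c overlapped. Among matrix and regulatory genes, Acan was at 5639 and 5498 against 4566, 4930 and 5452, lower in all mutant pups, while the more abundant Col9a1 and Col11a1 overlapped. Sox9 was at 1549 and 1453 against 1346, 1710 and 2038, with overlap. Ptch1, the hedgehog receptor and target, overlapped too, at 164 and 215 against 151, 175 and 201.

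Of 20 immediate early and dissociation genes 10 lay below both WT pups in all mutant pups, against 13.5% of all genes, and none above. An unadjusted p under 0.05 held for 7, each lower, beside 553 of all 14665 genes. The median log2 fold change was -0.16. Fos, the leading member, was at 5903 and 5717 CPM against 3461, 3988 and 5044, and Fosb at 3150 and 3245 against 2613, 2471 and 2889. None passed the adjusted threshold, and since these genes answer tissue digestion, the handling of each pup cannot be told apart from its genotype for them. Sex partly ran with genotype as well: Fos was at 5903, 5717 and 5044 CPM in the pups with Ddx3y and at 3461 and 3988 CPM in those with Xist.

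In the prehypertrophic and hypertrophic list most genes did not separate the genotypes. With Ihh and Col10a1 left out, since the selection used them, 3 of 11, Panx3, Ppa1 and Spp1, lay above in all mutant pups, beside 11.9% of all genes, and none lay below. None passed the threshold, and the median log2 fold change was 0.35, or 0.28 without Ibsp as well. Ihh itself was at 1.81 and 2.78 CPM in the WT pups and 5.11, 5.69 and 2.25 in the mutant pups. Col10a1 was at 8.24 and 12.7 CPM against 17.3, 16.4 and 11.2, and both overlapped between genotypes. Shallower cells stay under 3 Ihh UMIs more easily, and the mutant cells were shallower. The part of this in the list was not tested. Panx3, a channel of prehypertrophic cells, was at 189 and 236 CPM against 311, 314 and 241. Ibsp, a bone matrix gene, was at 94.7 CPM in mutant pup 3 and at 0.881 to 2.05 CPM in the other 4 pups, so its value rested on 1 library. Beside 11.9% above and 13.5% below of all genes, the cartilage matrix list had 1 of 23 above and 4 below, and the TRPV4 and calcium list 3 and 1 of 29. The TGF-β and BMP list had 10 of 51 above and 2 below (median 0.05), and the FGF, CNP and IGF list 6 of 28 above and none below (median 0.11), including Fgfr3 at 323 and 370 CPM against 375, 468 and 398. Erythroid genes, the list whose level was highest in WT pup 1, lay below for 4 of 6, beside 13.5% of all genes.

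Whether a genotype difference was particular to cycling cells was tested as an interaction of class and genotype in edgeR, with the pup as a block. Of 17751 genes 4 passed (0.0225%), and 1104 had an unadjusted p under 0.05. Tubb4b (chr2:25222160-25224702), a G2/M gene, was at 520 and 615 CPM in the WT and 510, 543 and 578 CPM in the mutant cycling chondrocytes, but in non-cycling cells at 112 and 122 CPM in the WT and 78.9, 78.5 and 85.3 CPM in the mutant pups. The interaction was 0.46 ± 0.05 on the log2 scale (SE; edgeR adjusted p = 0.00142), and the values show that it lay in the non-cycling class. Csta3, Ighm and Tac1 were the other 3, and each had under 2 CPM on average in cycling chondrocytes. For Ighm, an immunoglobulin chain of B cells, 156 of the UMIs came from WT pup 1, and for Csta3 the cycling chondrocytes of a pup held 0 to 14 UMIs. No gene passed without the pup block or without mutant pup 4. For Sp7 the interaction was 0.56 (edgeR adjusted p = 0.192).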

How the data were processed

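Single-cell RNA-Seq libraries, 1 per pup, were made on the BD Rhapsody platform from collagenase-digested cartilage. The authors made the deposited count matrices (UMI counts per gene and cell, not normalized) with a commercial cloud pipeline, and the submitters' processing notes name the build mm10. The annotation and pipeline version were not given in the sources used here. Cells with 200 to 6000 detected genes and at most 10% mitochondrial UMIs were kept, as in the study. Doublets were not called. Gene positions were taken from a GRCm38 annotation.

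UMI counts were summed over the cycling chondrocytes of each pup and tested with edgeR 4.0.16 in R 4.3.3 (quasi-likelihood test, TMM scaling, low-count filter, Benjamini-Hochberg adjustment, threshold 0.05), with DESeq2 1.42.0 as an alternative. The interaction used both classes with the pup as a block. Shares were compared with exact permutation tests. P-values measure the spread between these pups, and binomial intervals cover counting error only. Cycling and non-cycling cells were compared by the ratio of CPM within each pup, without a test, for genes of at least 20 CPM, and a gene was counted when the ratio passed 1.5 in the same direction in all 5 pups. The steps were tested on simulated data, where the share of false calls was above the nominal level in both edgeR comparisons, so the adjusted p-values may be too small. Thinning drew 5000 UMIs per cell for shares and descriptive ratios, and 10000 for sums.

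The members and gene lists were chosen with earlier results of these data known. Named genes were those of the selection and Trpv4, the 10 with the smallest p of at least 20 CPM where fewer than 5 passed, abundant members of the lists, the 10 highest and 10 lowest ratios between the classes among genes with the same direction in all 5 pups, the zone markers, and any gene past the interaction's threshold. The phase ranges, the genes named between them and the imprinted genes were chosen after values were seen.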

Additional observations from a re-analysis of the deposited data

Results flagged for a closer look

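For 4 genes the genotype difference itself differed between cycling and non-cycling chondrocytes, by edgeR's interaction test with the pup as a block. The differences on the log2 scale were 0.46 for Tubb4b (adjusted p = 0.00142), 5.46 for Csta3 (adjusted p = 0.0121), -1.89 for Tac1 (adjusted p = 0.0274) and -4.70 for Ighm (adjusted p = 0.0392). In cycling chondrocytes Tac1, a neuropeptide precursor, had 60 and 39 UMIs in the WT pups and 12, 9 and 15 in the mutant pups. In non-cycling chondrocytes it had 284 and 207 against 246, 138 and 455. Ighm had 156 and 26 UMIs against 0, 2 and 2 in cycling chondrocytes, and Csta3 had 5 and 0 against 14, 6 and 11. Tubb4b rested on many UMIs in every pup, and the other 3 on few.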

How the results depend on the processing

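The difference in cycling share turned to 0.076 percentage points when cells were thinned to 5000 UMIs, shallower cells left out and the condition lowered to 2 UMIs together, was -0.81 with 3 per 10000 UMIs, -1.01 over all cells, -1.29 without cells with other types' markers, -1.37 with 5 UMIs and -3.19 with 2, and without single pups ran from -3.02 to -0.963. That in G2/M share ran from -0.469 to 1.12 without single pups, with -0.445 without WT pup 1, -0.106 without mutant pup 4 and -0.469 without mutant pup 5, was 1.00 as a mean over cells and lay from 0.0014 to 0.23 under the other settings. The Ucma difference kept its direction under the 8 alternatives run and was -3.83 with a limit of 20 UMIs. Genes called between genotypes numbered 233 with no low-count filter, 24 with DESeq2, 1 with no upper limit on genes (chosen after seeing the data) and 0 to 96 without single pups. With sex as a covariate edgeR called 0 of 15511 genes, and 668 (4.31%) had an unadjusted p under 0.05, beside 1112 of 14665 (7.58%) without it. The Trpv4 fold change was -0.063 without WT pup 2 and 0.52 without WT pup 1. Interaction calls numbered 9 with non-cycling cells of 0 to 2 UMIs, 108 with no low-count filter, 0 with no pup block and 0 to 24 without single pups. The cause of these changes was not tested. No paired analysis was possible because WT and mutant pups share no replicate number.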

Other observations

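Imprinted genes, which are expressed from 1 parental allele and many of which act on fetal growth, were listed after several of them were noticed among the lower genes, so no test was made. Of 28 listed genes 21 reached 20 CPM, and 5 were at least 1.5 times lower in cycling than in non-cycling chondrocytes in every pup, beside 3.58% of all genes, and none was higher. They were Meg3, Rian and Mirg, noncoding RNAs of the Dlk1 locus, the zinc finger gene Plagl1, and Zim1. Meg3 was at 810, 749.5, 726, 694.5 and 765 CPM in cycling chondrocytes of pups 1 to 5 and at 1587, 1709, 1708, 1629 and 1960 in non-cycling ones, without overlap. Plagl1 had a mean of 1913 against 3499 CPM, and Dlk1 of 2404 against 3905. By direction alone, 17 of the 21 were lower and 3 higher in all 5 pups, and after thinning 15 and 2. Of all 6084 genes 33.7% were lower and 47.1% higher in all 5 pups, and after thinning 28.9% and 43.4%. Grb10 was among the higher ones, at a mean of 804 against 734 CPM.

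Abundant genes outside the lists that were higher in every pup included the histone variant H2az1 (mean 1289 against 155 CPM), the chromatin protein Hmgb1 (1210 against 502), Ran, the GTPase of nuclear transport and spindle assembly (1182 against 387), and Ptma, prothymosin alpha (6979 against 3697). Lower ones included Ecm2, a matrix gene (166 against 398), Zfp36l1, which promotes mRNA decay (192 against 407), and Col12a1 (1072 against 1914). These genes, too, were picked with their values in view.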
